A study of Homo sapiens with 24 samples.

Results

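MDA-MB-231 and MDA-MB-436, lines of triple-negative breast cancer grown in culture, were compared in the libraries that carried no active treatment. The members are the 12 control libraries of 24 in the series, chosen by their labels alone: for each line, 3 libraries from cells expressing a non-targeting shRNA and 3 from cells given the vehicle DMSO. The other 12 libraries came from cells with an MDM2 shRNA or with YX-2-30, a PROTAC degrader of MDM2, and are used here only where named. Total RNA was sequenced from both lines, grown in DMEM with serum. Each line was established from 1 patient, so every difference below is between 2 lines and not between classes of tumour. Whether replicates were grown as separate cultures is not given in the labels, so the p-values measure only the spread between these libraries, which may be technical.

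Triple-negative breast cancers lack the oestrogen and progesterone receptors and amplified ERBB2. MDM2 is a ubiquitin ligase that binds and restrains the p53 family of transcription factors, MDM4 is its relative and partner, and TP63 and TP73 are the other family members. CDKN1A, which encodes the kinase inhibitor p21, is the best known target gene of the family. The kinase inhibitors encoded by CDKN2A and CDKN2B act on the step before, where D cyclins and their kinases inactivate RB1.

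The control libraries held between 49588824 and 174744841 counts, and mitochondrial transcripts took 5.43% to 5.93% of them in MDA-MB-231 and 6.78% to 7.26% in MDA-MB-436. Line was the main axis of the data: the first principal component carried 80% of the variance and placed MDA-MB-231 between -167.2 and -163.2 and MDA-MB-436 between 161.0 and 166.8. The second component carried 2.7% and was set mainly by 1 DMSO library of MDA-MB-436 (replicate 1), at 90.9. Pearson correlations of log2 levels, taken across genes, ran from 0.818 to 0.828 between lines and from 0.969 to 0.981 within a line. No pair of replicates looked like 1 library deposited more than once.

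Levels are given in CPM (counts-per-million), the counts of a gene relative to the scaled library total, as the lowest, median and highest of the 6 libraries of a line. Differences are log2 MDA-MB-436 minus MDA-MB-231 ± standard error, from edgeR's quasi-likelihood test with control type as a covariate. A gene is called at a Benjamini-Hochberg adjusted p under 0.05 over the 22450 genes tested. The background is high: 16021 genes (71.4%) were called, 8236 (36.7%) higher in MDA-MB-436 and 7785 (34.7%) higher in MDA-MB-231. At a fold of at least 2, 9001 genes (40.1%) were called, 4778 (21.3%) and 4223 (18.8%) in the same order, and 56.1% of the genes had no overlap between the libraries of the lines. Over all tested genes the median difference was 0.04 and the median size 0.85, on the log2 scale. Of the 15301 protein-coding genes tested, 79.3% were called, 6129 higher in MDA-MB-436 and 6003 higher in MDA-MB-231. A call by itself is therefore common here, and lists are described by direction and size.

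**Figure D1:**
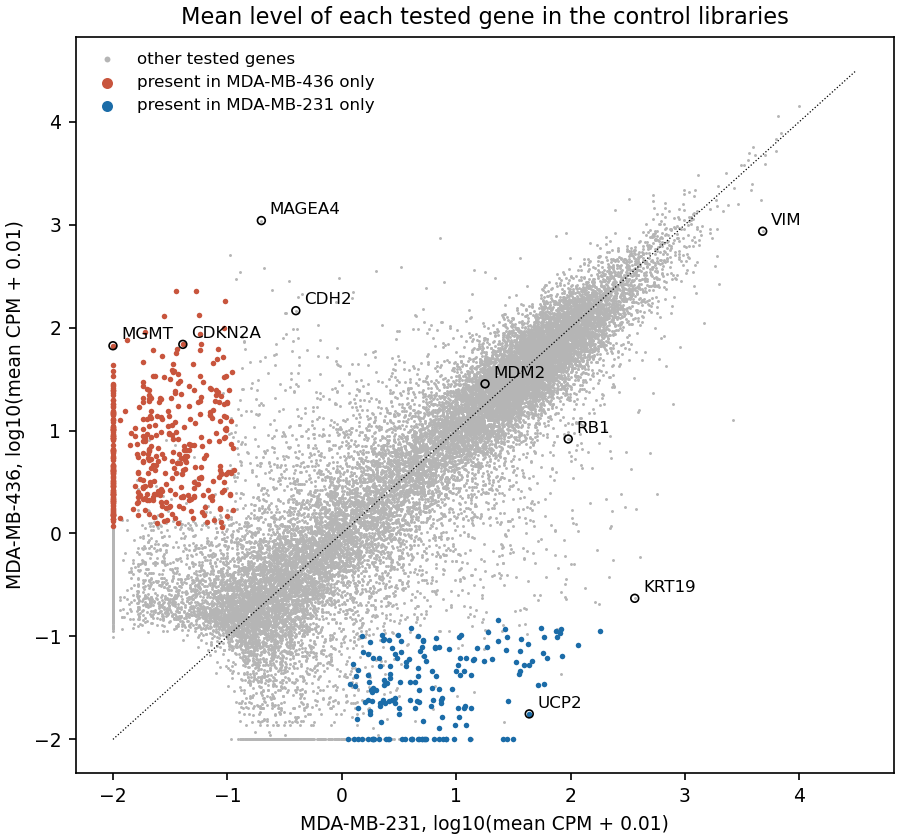
Mean CPM of each tested gene in the 6 control libraries of MDA-MB-231 (x axis) and MDA-MB-436 (y axis), both as log10(mean CPM + 0.01). Coloured points are genes present in 1 line only by the rule given in the text; MGMT and CDKN2A lie on the left, UCP2 on the lower right, and MDM2 lies near the dotted line of equal level.

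Both hormone receptor genes were near 0 in both lines. ESR1, the oestrogen receptor, lay at 0.0, 0.133 and 0.421 CPM in MDA-MB-231 and at 0.0, 0.0 and 0.165 CPM in MDA-MB-436. PGR, the progesterone receptor, had 0 counts in MDA-MB-231 and 19 counts over the 6 libraries of MDA-MB-436. ERBB2 was expressed in both, at 66.3, 69.1 and 71.7 CPM in MDA-MB-231 and 45.7, 51.9 and 59.5 CPM in MDA-MB-436, a log2 difference of -0.40 ± 0.06 (edgeR adjusted p = 6.06e-05).

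The label epithelial was set against the markers of that cell type, and both lines were low in the defining one. CDH1, the cadherin of epithelial junctions, reached at most 0.196 CPM in MDA-MB-231 and 0.616 CPM in MDA-MB-436, and was not called (log2 difference 0.55 ± 1.23, edgeR adjusted p = 0.702). EPCAM, an adhesion protein of epithelium, lay at 17.7, 19.2 and 20.2 CPM in MDA-MB-231 and 3.16, 3.84 and 4.49 CPM in MDA-MB-436 (log2 difference -2.32 ± 0.09). Of 20 tested epithelial genes, 9 were higher in MDA-MB-231, 5 higher in MDA-MB-436 and 6 were not called, with a median log2 difference of -0.79. Members with large differences went opposite ways. CLDN7, a tight-junction protein, lay at 34.1, 40.9 and 44.6 CPM against at most 0.236 CPM. LCN2, a secreted iron-binding protein, had 12 counts in MDA-MB-231 and 33.3, 37.4 and 46.2 CPM in MDA-MB-436.

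Markers of leukocytes, endothelium and fibroblasts gave single high genes and not whole sets. Of 12 leukocyte markers, CD3E, CD3D, MS4A1 and TYROBP had 0 counts in both lines, and the summed level ran from 34.6 to 48.8 CPM in MDA-MB-231 and from 24.1 to 31.8 CPM in MDA-MB-436, most of it from CD68. PTPRC, the leukocyte antigen CD45, lay at 3.71, 5.06 and 5.17 CPM in MDA-MB-231 and held 8 counts in MDA-MB-436. Of 10 endothelial markers, ESAM, a junction protein, made up nearly the whole sum at 209.7, 227.0 and 237.6 CPM in MDA-MB-231, where CDH5 and EMCN were at or near 0. TIE1, an endothelial receptor, lay at 7.05 CPM pooled there and held 15 counts in MDA-MB-436. Of the 6 tested endothelial markers, 3 were higher in each line. Among 12 fibroblast markers DCN had 0 counts in both lines and LUM 0 in MDA-MB-436, while FBLN1, a matrix protein, lay at a median of 2.09 CPM in MDA-MB-231 and 107.7 CPM in MDA-MB-436. The part of other cells in any result below was not tested.

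Keratins differed by member. KRT19, a keratin of simple epithelium, lay at 353.4, 364.0 and 379.8 CPM in MDA-MB-231 and at most at 0.334 CPM in MDA-MB-436, and KRT7 lay at 211.4, 220.5 and 235.5 CPM against 5.87, 9.25 and 10.8 CPM. The partners KRT8 and KRT18 were the other way round: the log2 differences were 0.60 ± 0.06 and 0.86 ± 0.04, with medians of 319.9 and 491.4 CPM for KRT8. Basal keratins were low in both lines, with KRT5 at 0 counts in MDA-MB-231 and at most 0.695 CPM in MDA-MB-436, and KRT17 at medians of 0.247 and 2.66 CPM. Over 11 tested keratins, 6 were higher in MDA-MB-436 and 5 in MDA-MB-231, with a median of 0.48 whose sign turned in the DMSO libraries alone.

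Luminal breast markers leaned to MDA-MB-231: of 13 tested, 8 were higher there, 3 in MDA-MB-436 and 2 were not called, with a median log2 difference of -1.46. SPDEF, a transcription factor of luminal epithelium, lay at 33.4, 40.1 and 42.7 CPM in MDA-MB-231 and held 15 counts in MDA-MB-436. The secreted peptides TFF1 and TFF3 were low, at medians of 0.254 and 0.668 CPM in MDA-MB-231 and 0 counts in MDA-MB-436, which is at least 41.2-fold and 113.4-fold higher in MDA-MB-231 against a floor of 3 counts over the 6 libraries.

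Mesenchymal genes were expressed in both lines, at levels that differed by member. VIM, the intermediate filament vimentin, was among the most abundant transcripts of MDA-MB-231 at 4419, 4562 and 5966 CPM, and lay at 755.7, 887.3 and 951.7 CPM in MDA-MB-436, a fold of 5.55 (95% interval 4.85 to 6.35). CDH2, the cadherin of mesenchymal cells, went the other way: at most 0.597 CPM in MDA-MB-231 and 138.1, 143.3 and 156.1 CPM in MDA-MB-436, so the libraries of the lines lay far apart. Of 21 tested mesenchymal genes, 12 were higher in MDA-MB-231 and 8 higher in MDA-MB-436, with a median of -0.51.

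The cell-surface peptidases FAP and MME had 0 counts in MDA-MB-231. FAP lay at 7.68, 9.02 and 10.1 CPM in MDA-MB-436, at least 1284-fold higher, and MME at 14.7, 17.6 and 21.1 CPM, at least 2549-fold higher. Both bounds use the floor of 3 counts.

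The transcription factors that drive the epithelial to mesenchymal transition were divided between the lines. TWIST2 had 0 counts in MDA-MB-231 and 13, 15.3 and 17.2 CPM in MDA-MB-436, and TWIST1 held 4 counts against 23.5, 26.1 and 31.4 CPM. ZEB2 was also higher in MDA-MB-436 (log2 difference 1.82 ± 0.07). SNAI2 and ZEB1 were higher in MDA-MB-231, with log2 differences of -4.42 ± 0.27 and -2.32 ± 0.17, so that ZEB1 and its relative ZEB2 differed in opposite directions. In all, 8 of 12 factors were higher in MDA-MB-436 and 3 in MDA-MB-231, with a median of 1.78.

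**Figure D2:**
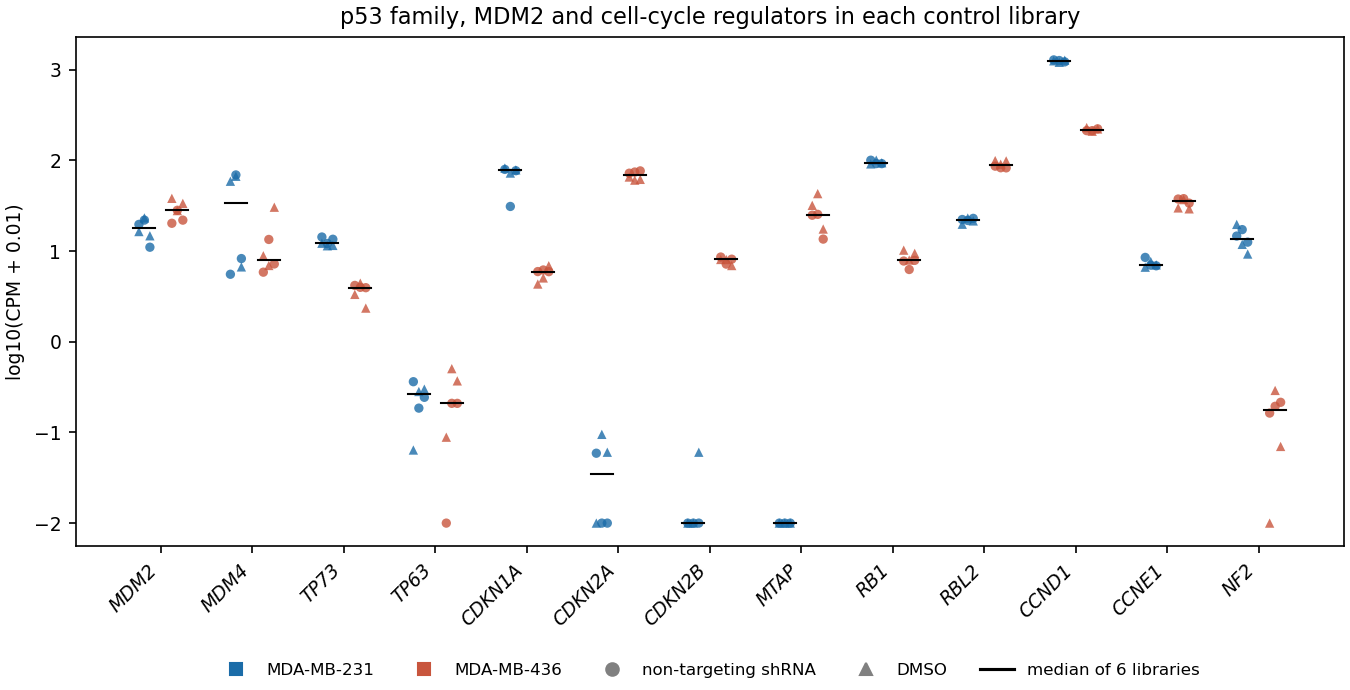
Level of 13 regulators in each of the 12 control libraries, as log10(CPM + 0.01); colour gives the line, shape the control type and the bar the median of 6 libraries. MTAP lies at 0 in all 6 MDA-MB-231 libraries, CDKN2A and CDKN2B lie near 0 there, RB1, CDKN1A and NF2 are low in MDA-MB-436, and the points of MDM4 and TP63 overlap between lines.

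MDM2 RNA was moderately higher in MDA-MB-436. It (ENSG00000135679, chromosome 12, 68808176 to 68850686, GRCh38) lay at 11, 18.1 and 23.3 CPM in MDA-MB-231 and at 20.3, 28.1 and 38.2 CPM in MDA-MB-436, a fold of 1.57 (95% interval 1.18 to 2.07, log2 difference 0.65 ± 0.19, edgeR adjusted p = 0.00755). The libraries of the lines overlapped. In the DMSO libraries alone the log2 difference was 0.88 ± 0.26 (adjusted p = 0.0113), and in the non-targeting shRNA libraries alone it was 0.42 ± 0.26 and was not called (adjusted p = 0.178), while the difference between these values was not called either (adjusted p = 0.626). MDM2 shares exon sequence with an unnamed gene on its strand and with CPM, a carboxypeptidase gene, on the other strand.

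MDM4 (ENSG00000198625) could not be placed between the lines. Its level ran from 5.55 to 69.3 CPM in MDA-MB-231, with a median of 33.7, and from 5.85 to 30.5 CPM in MDA-MB-436, with a median of 8.05. The log2 difference of -1.58 ± 0.70 missed the threshold (edgeR adjusted p = 0.0596). It passed with DESeq2 (adjusted p = 0.0375) and without any 1 of 4 libraries, and the log2 difference was -0.76 without non-targeting shRNA replicate 2 of MDA-MB-231.

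TP73 (ENSG00000078900) was higher in MDA-MB-231. It lay at 11.5, 12.2 and 14.3 CPM there and at 2.34, 3.96 and 4.43 CPM in MDA-MB-436, a fold of 3.40 (95% interval 2.80 to 4.12, edgeR adjusted p = 6.66e-08), with no overlap. TP63 (ENSG00000073282) was near the limit of detection in both lines, with 106 counts in each over 6 libraries and a log2 difference of -0.14 ± 0.71 (adjusted p = 0.867). Per length, the mean levels in MDA-MB-231 were 1.35 RPKM for MDM2, 3.27 for MDM4, 1.85 for TP73 and 0.0309 for TP63, and those in MDA-MB-436 were 2.14, 1.10, 0.547 and 0.0298. TP73 therefore stood above MDM2 per length in MDA-MB-231 and below it in MDA-MB-436. By median CPM, MDM2 stood above TP73 in both lines. The order in MDA-MB-231 thus depends on the length used, which joins all annotated exons of a gene and is not that of 1 transcript.

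Proteins that bind or modify the family were mostly higher in MDA-MB-436. PPP1R13B and TP53BP2, which encode the ASPP proteins that favour p53 family activity, had log2 differences of 1.21 ± 0.11 and 1.22 ± 0.05. PPP1R13L, the inhibitory ASPP relative, was 3.70-fold higher in MDA-MB-231 (95% interval 3.32 to 4.12), at 119.6, 132.7 and 149.8 CPM against 32.5, 35.3 and 41.3 CPM. The 3 ASPP genes thus differed with the inhibitory member opposite to the other pair. HIPK2, a kinase of the pathway, and TP53BP1, a DNA damage adaptor, were higher in MDA-MB-436 (1.19 ± 0.06 and 1.52 ± 0.07). USP7, the deubiquitinase of MDM2, differed by -0.17 ± 0.05 (edgeR adjusted p = 0.0129), and this call was lost when only library totals were used for scaling (adjusted p = 0.0603). Of the 10 genes of this list 5 were higher in MDA-MB-436, 3 in MDA-MB-231 and 2 were not called. The median of 0.25 turned to -0.15 when genes overlapping others were left out.

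CDKN1A (ENSG00000124762) was 12.2-fold higher in MDA-MB-231 (95% interval 8.64 to 17.2, edgeR adjusted p = 1.72e-08). It lay at 31.1, 78.0 and 82.5 CPM there and at 4.33, 5.94 and 6.90 CPM in MDA-MB-436. The lowest MDA-MB-231 library still lay above every MDA-MB-436 library. Calls of other targets of the family leaned to MDA-MB-231. Of 29 tested, 16 were higher there, 9 in MDA-MB-436 and 4 were not called, with a median of -0.30. At a fold of at least 2 the list was nearly even, with 8 genes higher in MDA-MB-231 against 7. FAS, a death receptor, and CCNG1, a cyclin of the p53 response, differed by -2.32 ± 0.29 and -1.94 ± 0.08. BTG2, an antiproliferative gene, and SPATA18, a mitochondrial quality factor, were higher in MDA-MB-436, at medians of 6.59 and 1.58 CPM against 0.287 and 0.0 CPM.

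The inhibitors of CDK4 and CDK6 divided the lines. CDKN2A (ENSG00000147889, chromosome 9, 21967753 to 21995301), which encodes p16 and ARF, the latter an inhibitor of MDM2, held 14 counts over the 6 libraries of MDA-MB-231 and lay at 60.7, 69.1 and 76.8 CPM in MDA-MB-436. CDKN2B held 4 counts against 6.93, 8.08 and 8.60 CPM. The counts join both CDKN2A products, and CDKN2A overlaps CDKN2B-AS1 on the other strand. CDKN2D was higher in MDA-MB-231 (-1.71 ± 0.08) and CDKN1C, the p57 inhibitor, in MDA-MB-436 (1.52 ± 0.13). The 8 tested CDK inhibitors were all called, 4 in each direction.

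RB1 (ENSG00000139687), the pocket protein that CDK4 and CDK6 inactivate, was low in MDA-MB-436. It lay at 91.7, 93.4 and 100.9 CPM in MDA-MB-231 and at 6.27, 7.93 and 10.3 CPM in MDA-MB-436, a fold of 11.6 (95% interval 10.1 to 13.4, edgeR adjusted p = 6.39e-12). Its relatives differed in opposite directions, RBL1 by -1.69 ± 0.04 and RBL2 by 2.04 ± 0.06. High CDKN2A with low RB1 in MDA-MB-436 stood against near-absent CDKN2A with high RB1 in MDA-MB-231.

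Cyclins of the same step differed in opposite directions. CCND1, cyclin D1, was 5.73-fold higher in MDA-MB-231 (95% interval 5.46 to 6.01), at 1211, 1263 and 1287 CPM against 210.2, 218.1 and 230.9 CPM. CCNE1, cyclin E1, was 4.69-fold higher in MDA-MB-436 (95% interval 4.12 to 5.34), at 29.3, 35.4 and 37.9 CPM against 6.64, 7.02 and 8.52 CPM. Of 20 tested genes of RB, E2F and the cyclins, 12 were higher in MDA-MB-231 and 6 higher in MDA-MB-436, with a median of -0.64.

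Genes of the ERK pathway's output gave the most one-sided list. These genes, feedback inhibitors and transcription factors induced by ERK signalling, were all called: 17 of 18 were higher in MDA-MB-231 and 1, EPHA4, in MDA-MB-436, with a median of -1.09. DUSP6, a phosphatase that removes phosphate from ERK, lay at 205.1, 219.2 and 272.4 CPM in MDA-MB-231 and at 1.27, 1.67 and 2.01 CPM in MDA-MB-436, a fold of 140.0 (95% interval 113.9 to 172.0, edgeR adjusted p = 4.30e-13). SPRY1, another feedback inhibitor, was 43.1-fold higher in MDA-MB-231 (95% interval 24.2 to 76.7). DUSP4, a nuclear phosphatase of the same family, was 14-fold higher (95% interval 13.2 to 14.7), at 879.6, 912.8 and 945.0 CPM against 62.9, 65.1 and 68.5 CPM. ERK phosphorylation was not measured.

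The EGFR family and its ligands, which act upstream of ERK, also leaned to MDA-MB-231. EGFR, the epidermal growth factor receptor, lay at 595.9, 659.7 and 714.0 CPM there and at 183.1, 247.6 and 318.9 CPM in MDA-MB-436 (fold 2.70, 95% interval 2.32 to 3.15). Its ligand AREG and its feedback inhibitor ERRFI1 differed by -4.02 ± 0.10 and -3.57 ± 0.04, and NRG1, a ligand of the related receptors, by -2.34 ± 0.06. Of 12 tested members of this family, 9 were higher in MDA-MB-231, 1 higher in MDA-MB-436 and 2 were not called, with a median of -1.5.

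The other receptor kinases and ligands were mixed, with 15 of 34 higher in MDA-MB-231, 13 higher in MDA-MB-436 and a median of -0.13. AXL, a receptor of mesenchymal tumour cells, was 7.55-fold higher in MDA-MB-231 (95% interval 7.27 to 7.84), at medians of 1985 and 261.7 CPM. The growth factor FGF2 lay at most at 0.667 CPM in MDA-MB-231 and at 214.7, 269.4 and 385.6 CPM in MDA-MB-436. FGF2 overlaps the antisense gene NUDT6, and no source used here gives the strand setting of the counts. FLT4, a receptor of lymphatic growth factors, held 10 counts in MDA-MB-231 and 26.9, 31.5 and 34.7 CPM in MDA-MB-436. RET, another receptor, had 0 counts against 2.23, 3.03 and 3.60 CPM, at least 456.1-fold higher in MDA-MB-436.

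The PI3K pathway, which carries growth signals through membrane lipids to AKT kinases, differed in single members. INPP4B, a phosphatase of its lipids, lay at 48.9, 51.6 and 54.7 CPM in MDA-MB-231 and at most at 0.347 CPM in MDA-MB-436. AKT2 was higher in MDA-MB-231 (-1.33 ± 0.05) and the leukocyte PI3K subunit PIK3CD in MDA-MB-436 (2.0 ± 0.08). The list as a whole moved little, with 8 of 15 genes not called, 5 higher in MDA-MB-231 and 2 higher in MDA-MB-436, and a median of -0.06.

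Most tested integrins and laminins were higher in MDA-MB-231. LAMB3, a chain of the basement membrane laminin, lay at 705.6, 808.9 and 858.2 CPM in MDA-MB-231 and at 15.9, 17.4 and 20.6 CPM in MDA-MB-436, a fold of 44.0 (95% interval 38.5 to 50.3). Of 26 tested integrins and laminins, 16 were at least 2-fold higher in MDA-MB-231 and 7 higher in MDA-MB-436, with a median of -1.59. ITGB2, the leukocyte integrin chain, was higher in MDA-MB-231 (-5.02 ± 0.25) and ITGA4, which binds fibronectin and VCAM1, in MDA-MB-436, at 27.3, 32.3 and 40.8 CPM against 22 counts in all.

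Proteases and their inhibitors showed larger folds. MMP14, a membrane-bound collagenase, lay at 538.5, 573.6 and 595.9 CPM in MDA-MB-231 and at 2.28, 2.36 and 2.68 CPM in MDA-MB-436, a fold of 237.4 (95% interval 218.4 to 258.0, edgeR adjusted p = 3.44e-16). The collagenase MMP1 and the inhibitor TIMP3 were higher in the same line, by -6.23 ± 0.13 and -6.36 ± 0.08. The list of 18 was nonetheless divided, 8 against 7, with a median of -0.37. The 18 tested collagens of the list, which does not hold every collagen, were split evenly, 9 and 9. Within it the largest differences were those of COL13A1 (-6.32 ± 0.08), COL6A3 (-6.00 ± 0.57) and COL17A1 (-5.06 ± 0.28), all higher in MDA-MB-231.

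NF2 (ENSG00000186575), which encodes merlin, an upstream inhibitor of YAP in the Hippo pathway, was nearly absent in MDA-MB-436. It lay at 9.28, 13.6 and 19.7 CPM in MDA-MB-231 and at most at 0.281 CPM in MDA-MB-436, with 6372 and 79 counts. ANKRD1, a target gene of YAP, was higher in MDA-MB-231, at 359.3, 368.9 and 393.3 CPM against 1.20, 1.53 and 2.71 CPM, a fold of 223.9 (95% interval 172.9 to 289.9). Merlin protein and YAP activity were not measured, and a link between these levels was not tested. The tissue factor gene F3, on the same list, was 23-fold higher in MDA-MB-231 (95% interval 21 to 25), and YAP1 itself differed by -1.02 ± 0.14. Of 17 genes, 9 were higher in MDA-MB-231 and 6 higher in MDA-MB-436, with a median of -1.02.

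Signals of the TGF-beta family differed by member. ID4, an inhibitor of helix-loop-helix factors, lay at 26.5, 28.4 and 30.2 CPM in MDA-MB-231 and held 5 counts in MDA-MB-436. The ligand BMP7 and the BMP antagonist GREM1 were the reverse, with 5 and 7 counts in MDA-MB-231 and medians of 22.1 and 36.1 CPM in MDA-MB-436. Of 27 tested, 16 were higher in MDA-MB-231 and 8 higher in MDA-MB-436, with a median of -0.63.

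Notch and Wnt genes had no common direction. JAG1, a Notch ligand, was 35.0-fold higher in MDA-MB-231 (95% interval 31.7 to 38.7), at medians of 221.6 and 6.55 CPM, while the ligands DLL1 and DLL3 held 7 and 11 counts there and had medians of 3.70 and 4.16 CPM in MDA-MB-436. WNT7A had 0 counts in MDA-MB-231 and 6.37, 8.53 and 9.83 CPM in MDA-MB-436, at least 1279-fold higher. WNT6 and the Wnt inhibitor NKD1 were also nearly confined to MDA-MB-436, at medians of 0.456 and 1.15 CPM. For Notch 9 of 19 genes were higher in MDA-MB-436 and 7 in MDA-MB-231, and for Wnt 12 and 16 of 28.

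Inflammatory genes gave the largest shift towards MDA-MB-436 among the signalling lists. Of 31 tested chemokines and cytokines, 24 were higher in MDA-MB-436 and 7 in MDA-MB-231, none was left uncalled, and the median log2 difference was 4.09. IL1A and IL1B, the interleukin-1 cytokines, lay at medians of 0.414 and 1.00 CPM in MDA-MB-231 and 213.3 and 301.4 CPM in MDA-MB-436, folds of 493.9 (95% interval 379.1 to 643.6) and 333.3 (95% interval 259.4 to 428.3). IL6 was 70.8-fold higher (95% interval 59.0 to 85), and CXCL8, a neutrophil attractant, 15.4-fold higher (95% interval 13.5 to 17.6). By size the extremes of the list were low genes: CXCL6 and CXCL12 had 0 counts in MDA-MB-231 and medians of 1.75 and 0.842 CPM in MDA-MB-436, and CCL28 had 0 counts in MDA-MB-436 and 4.30, 4.67 and 5.50 CPM in MDA-MB-231.

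Target genes of NF-kB, the factor that interleukin-1 activates, moved with them. ICAM1, an adhesion molecule for leukocytes, was 15.2-fold higher in MDA-MB-436 (95% interval 14.1 to 16.4). TNFAIP3, a feedback inhibitor of NF-kB, and SOD2, the mitochondrial superoxide dismutase, were 21.6-fold and 13.7-fold higher (95% intervals 18.3 to 25.6 and 12.4 to 15.3). Of 17 genes 13 were higher in MDA-MB-436, 2 in MDA-MB-231 and 2 were not called, with a median of 1.30. Both lists share members of the same response, so their directions are not independent of each other.

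Interferon-stimulated genes leaned the same way with exceptions. RSAD2 and CMPK2, antiviral neighbours on chromosome 2, held 13 and 8 counts in MDA-MB-231 and lay at medians of 27.2 and 15.3 CPM in MDA-MB-436. XAF1, a pro-apoptotic interferon gene, was the reverse, at 0.637, 0.980 and 2.92 CPM against at most 0.103 CPM. Of 30 tested, 19 were higher in MDA-MB-436 and 7 in MDA-MB-231, with a median of 1.33.

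Genes of antigen presentation differed in both directions. CD74, the invariant chain of class II molecules, lay at 88.5, 101.1 and 110.0 CPM in MDA-MB-231 and at most at 0.760 CPM in MDA-MB-436. The class II gene HLA-DPA1 lay at 3.68, 5.43 and 6.23 CPM in MDA-MB-231 and had 0 counts in MDA-MB-436, at least 839.2-fold higher in MDA-MB-231. The class I gene HLA-B was higher in MDA-MB-436 (1.85 ± 0.05). Of 22 tested genes, 13 were higher in MDA-MB-231 and 7 higher in MDA-MB-436, with a median of -0.67. HLA genes are alike in sequence and differ between individuals, so their counts are uncertain.

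Genes of proliferation were modestly higher in MDA-MB-231. Of 32 tested mitotic genes, 21 were higher there, 4 in MDA-MB-436 and 7 were not called, with a median of -0.40, and only 4 passed 2-fold. CCNA2, DLGAP5 and TOP2A, which act in cyclin A control, spindle assembly and DNA untangling, differed most, by -1.28 ± 0.03, -1.29 ± 0.03 and -1.20 ± 0.03. DNA replication genes gave 18 of 32 higher in MDA-MB-231 and 9 higher in MDA-MB-436, with a median of -0.30. POLE2, a polymerase subunit, was higher in MDA-MB-231 (-1.40 ± 0.05), and so was GINS4 (-1.86 ± 0.39), whose libraries overlapped because 1 MDA-MB-231 library lay at 35.6 CPM.

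Replication histones had a median of -2.26, with 8 of 14 higher in MDA-MB-231 and 5 higher in MDA-MB-436. H1-3, H1-5 and H2BC8 had 0 counts in MDA-MB-231 and medians of 0.284, 0.249 and 0.717 CPM in MDA-MB-436. Most such transcripts carry no poly(A) tail, and these genes share sequence with their copies, so the list is uncertain.

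Apoptosis genes differed in single members. HRK, a killer protein of the BH3-only class, held 4 counts in MDA-MB-231 and lay at 14, 15.2 and 17.5 CPM in MDA-MB-436, and BMF, of the same class, differed by 3.31 ± 0.15. APAF1, the core of the apoptosome, was higher in MDA-MB-231 (-3.21 ± 0.21). Of 24 killer genes, 13 were higher in MDA-MB-231 and 7 higher in MDA-MB-436, with a median of -0.22. The survival genes BCL2L1 (-2.04 ± 0.05), BCL2 (-1.48 ± 0.10) and BIRC2 (-1.38 ± 0.23) were all higher in MDA-MB-231, as were 5 of the 9 tested, with 2 higher in MDA-MB-436.

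Metabolic lists held some of the clearest single genes. PHGDH, the first enzyme of serine synthesis, was 13-fold higher in MDA-MB-436 (95% interval 11.9 to 14.2), at 425.5, 472.8 and 526.7 CPM against 32.2, 36.3 and 39.5 CPM. ASS1, of arginine synthesis, was 30.5-fold higher (95% interval 28.2 to 33), and CBS, of cysteine synthesis, held 2 counts in MDA-MB-231 and had a median of 8.96 CPM in MDA-MB-436. Of 21 genes of serine, one-carbon and amino acid metabolism, 13 were higher in MDA-MB-436 and 5 in MDA-MB-231, with a median of 0.32.

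The NRF2 list of antioxidant genes leaned the same way, 13 of 22 against 6, with a median of 0.61, and FTH1, the ferritin heavy chain, led it (2.43 ± 0.08), followed by AKR1C1 (1.86 ± 0.16) and OSGIN1 (1.79 ± 0.07). Sterol and fatty acid synthesis moved little, with a median of -0.18 and 13 of 25 genes higher in MDA-MB-231. SQLE, an enzyme of cholesterol synthesis, was higher in MDA-MB-436 (2.62 ± 0.06).

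Homologous recombination genes were balanced, 15 of 33 higher in MDA-MB-231 and 14 higher in MDA-MB-436, with a median of -0.08. RAD51B, a recombination factor, lay at 5.00, 5.94 and 6.76 CPM in MDA-MB-231 and held 4 counts in MDA-MB-436. SLFN11, which blocks stressed replication forks, was 124.3-fold higher in MDA-MB-436 (95% interval 91.1 to 169.5), at medians of 0.477 and 59.8 CPM. FANCE, of the Fanconi anaemia pathway, was higher in MDA-MB-231 (-2.38 ± 0.07).

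**Figure D3:**
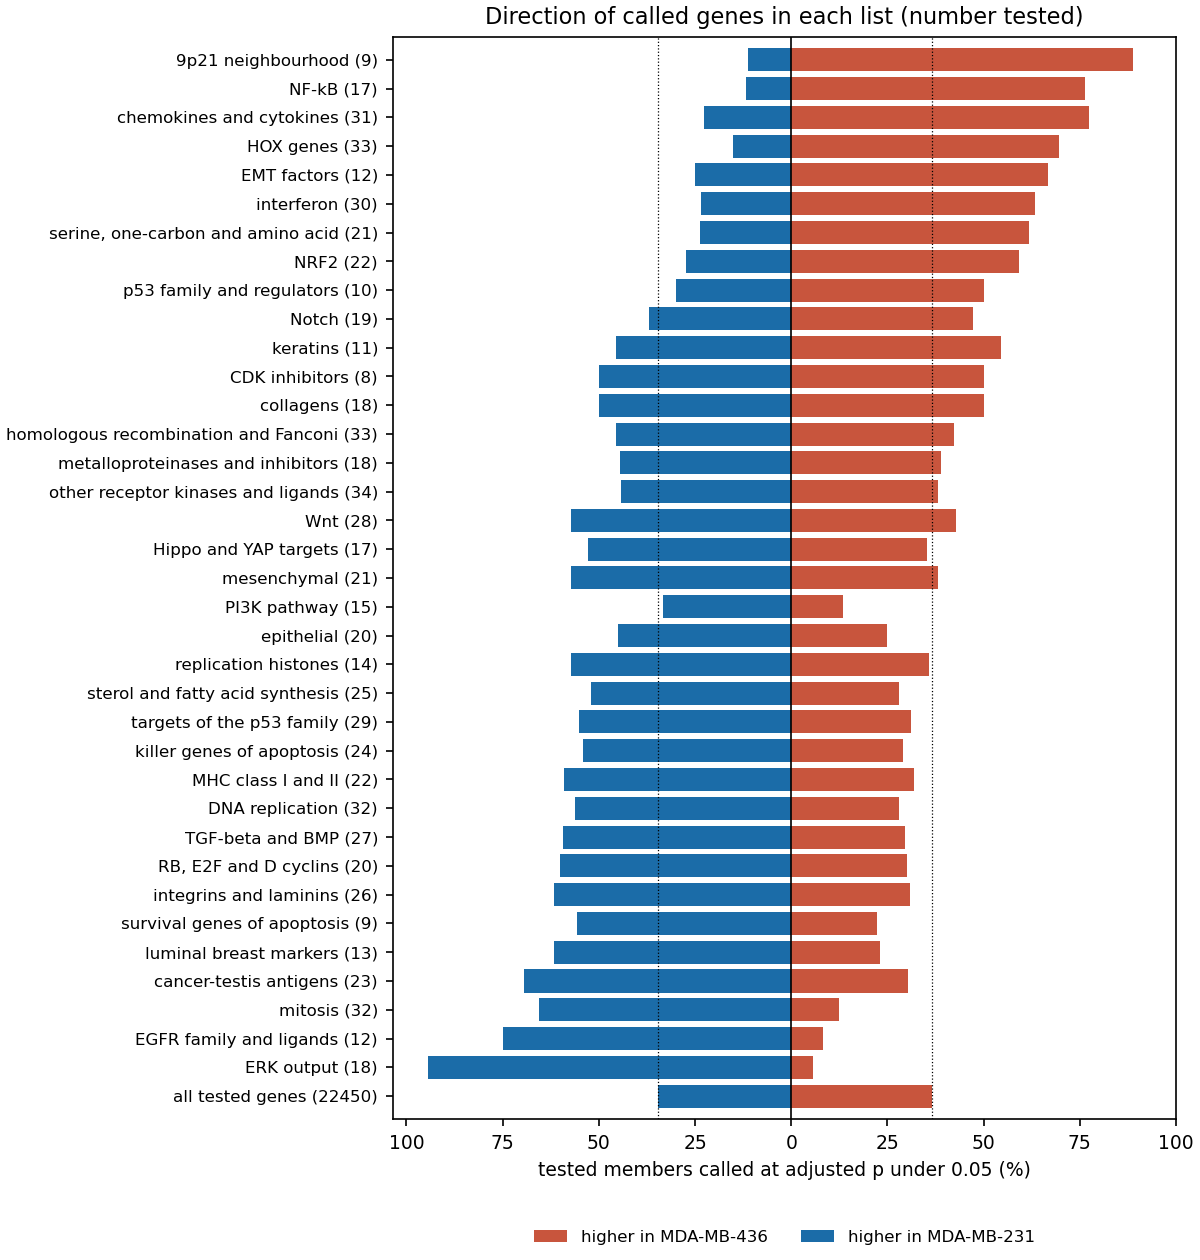
Share of the tested members of each list called higher in MDA-MB-436 (right) or in MDA-MB-231 (left), in percent. Calls are at an adjusted p under 0.05, and brackets give the number tested. Dotted lines mark the shares of all 22450 genes (36.7% and 34.7%). Among tested protein-coding genes alone the share called either way was larger, 79.3% against 71.4%. ERK output lies farthest to the MDA-MB-231 side, with 17 of 18 genes, and NF-kB targets and cytokines lie far to the MDA-MB-436 side.

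Genes present in 1 line only were defined by at least 1 CPM in each of the 6 libraries of that line and a pooled level under 0.1 CPM in the other. Each rule value and level here chose the genes and is given as a description. MDA-MB-436 had 498 such genes, of which 87.55% were protein-coding, and MDA-MB-231 had 249, of which 71.49% were. The protein-coding genes of the sets were 3.59% and 1.5% of those present in each line. In the opposite line 142 and 35 of the protein-coding genes had 0 counts. The pooled level in the opposite line was 0.0986 CPM just inside the limit and 0.101 CPM just outside for the MDA-MB-436 set, and 0.0992 and 0.101 CPM for the other. The treated libraries, which the rule did not use, were read in the same way: of the protein-coding genes of the first set, 372 stayed under 0.1 CPM in the treated libraries of MDA-MB-231 and 0 reached 1 CPM, and of the 178 of the second set 106 stayed under 0.1 CPM in those of MDA-MB-436 and 2 reached 1 CPM.

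The most abundant genes present in MDA-MB-436 only were FBLN2, a matrix protein, at 189.1, 228.0 and 266.9 CPM against 20 counts, and ANPEP, the aminopeptidase CD13, at 215.8, 226.0 and 244.7 CPM against 12 counts. BHMT2, a methyltransferase, followed at a median of 184.5 CPM, then PRAME, a tumour antigen, at 133.2, WNK2, a kinase, at 129.2, IGF2BP1, an RNA-binding protein of the fetus, at 96.5, C1QTNF4 at 89.9 and NID1, a basement membrane protein, at 82.9 CPM. Each held 39 counts or fewer in MDA-MB-231.

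MGMT, which removes alkyl groups from guanine in DNA, had 0 counts in MDA-MB-231 and 59.6, 66.1 and 77.5 CPM in MDA-MB-436, at least 10310-fold higher, and an unnamed gene overlaps it on the other strand. OLFM1, a secreted glycoprotein, and FUOM, an enzyme of fucose metabolism, also had 0 counts against medians of 44.4 and 38.3 CPM, at least 6504-fold and 5816-fold higher.

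Among the most abundant genes present in MDA-MB-231 only, APBB1IP, an adaptor of integrin signalling, lay at a median of 117.8 CPM, SLC17A9, a nucleotide transporter, at 83.7 and CAVIN2, a coat protein of caveolae, at 77.7 CPM. The top 8 also held MAGEA6, MAGEC1, XAGE1A and XAGE1B, cancer-testis antigens with near-identical copies, so their counts are uncertain.

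SPTLC3, a subunit of the sphingolipid synthase, and CCDC8 had 0 counts in MDA-MB-436 and medians of 31.2 and 28.0 CPM in MDA-MB-231, at least 5009-fold and 4447-fold higher. CST4, a secreted protease inhibitor, and TMPRSS15, a protease, were likewise at 0 counts, at least 4132-fold and 2124-fold higher in MDA-MB-231. UCP2, a mitochondrial carrier, held 3 counts against 41.4, 42.9 and 48.2 CPM, the inhibitor CST1 held 9 counts against a median of 59.2 CPM, and the hyaluronan receptor LAYN held 8 against 52.9 CPM.

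The promoters of the 2 sets differed in CG dinucleotides, the sites of DNA methylation in vertebrates. A window of 300 bases, 250 before and 50 after the first RefSeq start listed for a gene (GRCh38.p14), was scored for CG, which reads the same on both strands, and called CG-rich at a GC content of at least 50% and an observed to expected CG ratio of at least 0.6. A window was found for 12114 tested protein-coding genes, of which 75.85% were CG-rich, with a median of 25 CG. For the genes present in MDA-MB-436 only, 71.15% of 312 windows were CG-rich, with a median of 26 CG. For those present in MDA-MB-231 only it was 32.28% of 127, with a median of 9. The larger sets of genes called at 2-fold or more lay close together, at 67.7% and 65.23%. Methylation itself was not measured. Genes without a listed start have no window and are not in these shares.

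Promoters of genes from both sets are shown as examples, with every CG in capitals. MGMT and HOXA10 had 0 counts in MDA-MB-231, and CAVIN2 and TMPRSS15 were absent in MDA-MB-436. The windows are MGMT at chr10:129466991-129467290 on the plus strand, HOXA10 at chr7:27179812-27180111 on the minus strand, CAVIN2 at chr2:191847039-191847338 on the minus strand and TMPRSS15 at chr21:18403736-18404035 on the minus strand. They hold 45, 21, 5 and 0 CG, at a GC content of 78.7%, 56.7%, 49.3% and 31.7%. The HOXA10 window lies under the median of 25 CG over all tested protein-coding genes. These examples do not stand for their sets, as both sets hold CG-rich windows and others.
MGMT: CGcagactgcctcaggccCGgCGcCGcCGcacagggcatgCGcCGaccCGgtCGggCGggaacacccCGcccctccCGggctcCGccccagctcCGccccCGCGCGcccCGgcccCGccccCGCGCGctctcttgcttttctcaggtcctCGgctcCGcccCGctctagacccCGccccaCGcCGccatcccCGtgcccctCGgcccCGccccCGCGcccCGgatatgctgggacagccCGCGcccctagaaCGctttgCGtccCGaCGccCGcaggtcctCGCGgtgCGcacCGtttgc
HOXA10: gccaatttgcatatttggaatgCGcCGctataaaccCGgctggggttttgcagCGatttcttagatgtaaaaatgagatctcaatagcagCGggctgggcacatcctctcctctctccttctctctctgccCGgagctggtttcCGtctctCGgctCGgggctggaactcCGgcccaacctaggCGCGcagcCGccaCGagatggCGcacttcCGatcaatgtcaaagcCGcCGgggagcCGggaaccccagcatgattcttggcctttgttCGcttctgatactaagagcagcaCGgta
CAVIN2: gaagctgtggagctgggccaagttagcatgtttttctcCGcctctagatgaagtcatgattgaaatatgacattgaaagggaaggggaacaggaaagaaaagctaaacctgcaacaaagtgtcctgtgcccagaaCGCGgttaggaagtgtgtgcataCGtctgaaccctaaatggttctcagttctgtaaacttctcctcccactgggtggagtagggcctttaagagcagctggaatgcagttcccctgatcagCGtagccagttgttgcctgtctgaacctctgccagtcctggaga
TMPRSS15: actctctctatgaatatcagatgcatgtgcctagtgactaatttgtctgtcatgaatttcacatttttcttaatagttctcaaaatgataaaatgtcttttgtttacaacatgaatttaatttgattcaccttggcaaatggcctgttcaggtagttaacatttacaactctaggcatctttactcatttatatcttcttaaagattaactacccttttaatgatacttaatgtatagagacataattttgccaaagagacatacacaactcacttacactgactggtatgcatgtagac

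Some absent genes lay side by side. A run is an unbroken series of neighbouring protein-coding genes under 0.1 CPM in 1 line of which at least 3 reached 1 CPM in the other. There were 8 runs absent in MDA-MB-231 and 4 absent in MDA-MB-436. The run with the most genes lay on chromosome 9, where 25 neighbouring genes from HACD4 to IZUMO3 were absent in MDA-MB-231 and 21 of them had 0 counts. In MDA-MB-436, 7 of the 25 were expressed (HACD4, KLHL9, MTAP, CDKN2A, CDKN2B, DMRTA1 and ELAVL2), over 2.827 Mb from 20999515 to 23826337.

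This band, 9p21, is often lost in tumours, but DNA was not measured here. MTAP, an enzyme that salvages methionine, had 0 counts in MDA-MB-231 and 13.6, 25.2 and 43.1 CPM in MDA-MB-436, at least 3402-fold higher, and shares exons with an unnamed gene on its strand. KLHL9, a ubiquitin ligase adaptor, held 4 counts against 28.0, 28.4 and 32.8 CPM, and HACD4, of fatty acid elongation, 0 counts against 3.58, 4.42 and 5.51 CPM. Most of the other genes of the run are interferon genes, which lay under 1 CPM in MDA-MB-436 as well. On the left, FOCAD was expressed in MDA-MB-231 at a lower level than in MDA-MB-436 (3.10 against 52.8 CPM pooled), and on the right TUSC1 lay at 14.4 and 30.8 CPM.

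A second run on chromosome 9 joined BNC2, CNTLN and SH3GL2. CNTLN, a centrosome protein, had 0 counts in MDA-MB-231 and 26.1, 27.9 and 29.3 CPM in MDA-MB-436, at least 4090-fold higher. BNC2, a zinc finger protein, held 33 counts against a median of 23.4 CPM.

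On chromosome 7 part of the HOXA cluster formed a run of 11 genes, all with 0 counts in MDA-MB-231. HOX genes encode the transcription factors that set position along the body. HOXA10, whose promoter is among those shown, lay at 10.4, 15.1 and 21.1 CPM in MDA-MB-436, and HOXA3 at 3.15, 8.19 and 14 CPM. These are at least 2138-fold and 1083-fold higher. HOXA10 shares exons with an unnamed gene on its strand and with HOXA10-AS on the other. The right neighbour HOXA13 was low in both lines, at 0.834 and 0.928 CPM. HOXC13, HOXC11 and HOXC10 formed another run on chromosome 12. Of 33 tested HOX genes, 23 were higher in MDA-MB-436, 5 in MDA-MB-231 and 5 were not called, with a median of 6.11.

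**Figure D4:**
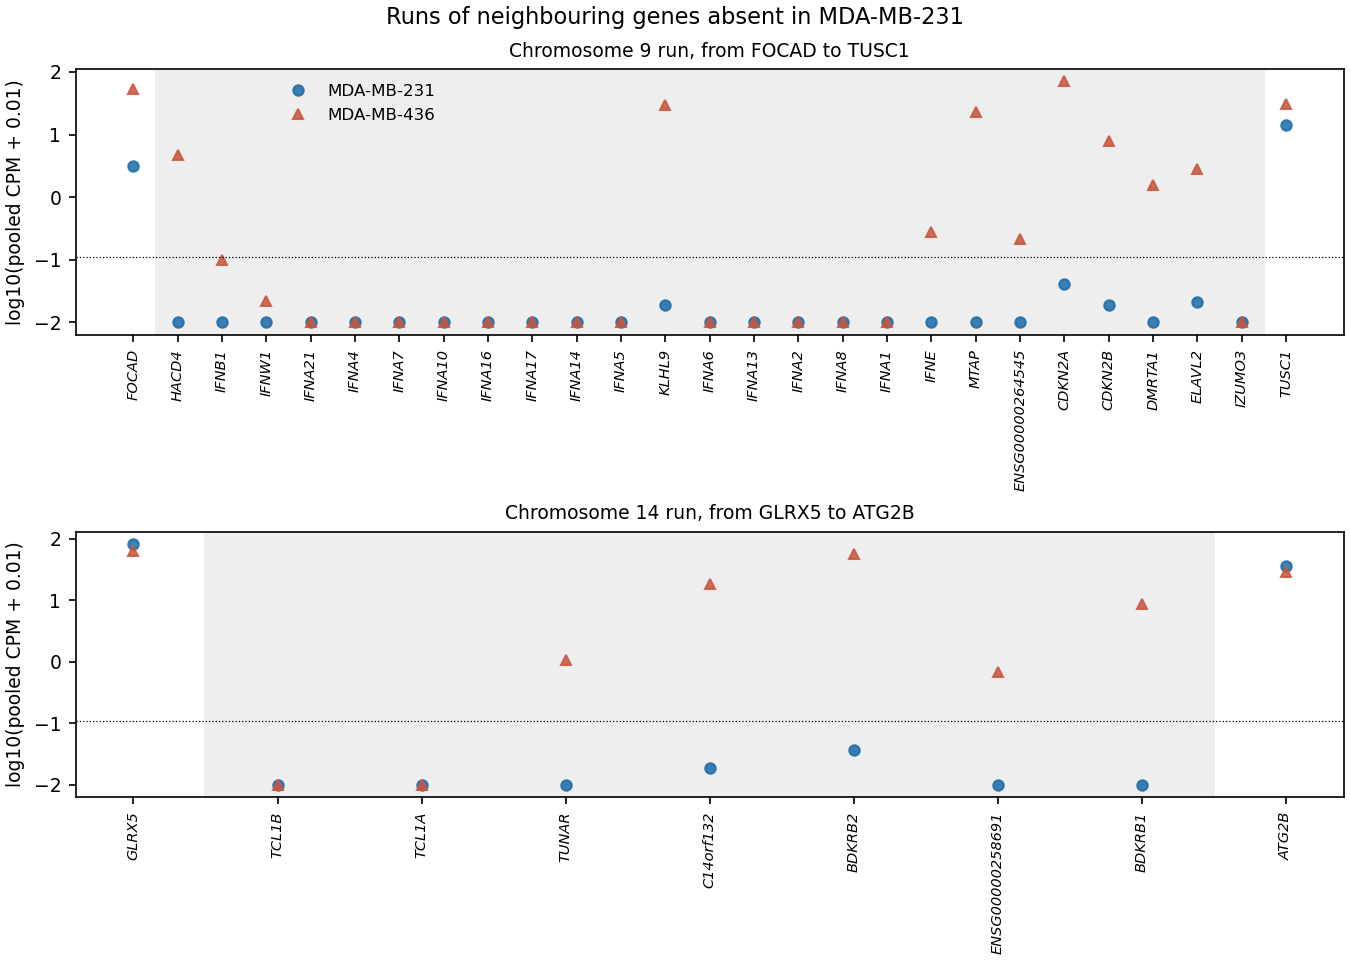
Pooled level, as log10(CPM + 0.01), of each protein-coding gene in chromosome order in 2 runs absent in MDA-MB-231 (grey band) and of their neighbours; circles are MDA-MB-231, triangles MDA-MB-436, and the dotted line marks 0.1 CPM. All MDA-MB-231 points inside the bands lie under the line, while CDKN2A reaches 70.7 CPM and BDKRB2 reaches 57.0 CPM in MDA-MB-436.

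The other runs absent in MDA-MB-231 held BDKRB1, BDKRB2, C14orf132 and TUNAR on chromosome 14, SOX11, CMPK2 and RSAD2 on chromosome 2, ZNF280B, ZNF280A and PRAME on chromosome 22, and PRR5, ARHGAP8, their read-through gene and PHF21B on chromosome 22. The last counts include a read-through gene that shares exons with its parts. Runs absent in MDA-MB-436 held ZNF682, ZNF90 and ZNF486 on chromosome 19, the protease inhibitors CST4, CST1 and CST2 on chromosome 20, CDH18, CDH12 and PRDM9 on chromosome 5, and SPANX and MAGEC genes on chromosome X. Each of these runs has expressed genes on at least 1 side.

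Cancer-testis antigens, normally confined to germ cells, were divided between the lines. Of 23 tested, all were called, 16 higher in MDA-MB-231 and 7 higher in MDA-MB-436, with a median of -7.20 (counting absent genes at their fitted value). MAGEA4 was the most abundant, with 82 counts in MDA-MB-231 and 1048, 1097 and 1148 CPM in MDA-MB-436. MAGEC2 lay at 5.66, 6.46 and 7.05 CPM in MDA-MB-231 and had 0 counts in MDA-MB-436. Family members such as the MAGEA genes share sequence, so single counts are uncertain.

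Chromosome X held the largest share of MDA-MB-436-only genes, 32 of the 431 protein-coding genes present there (7.43%), followed by chromosome 9 with 31 of 510 (6.08%), against 3.59% overall. For MDA-MB-231 chromosomes 21 and X led, with 5 of 115 (4.35%) and 18 of 417 (4.32%), against 1.5% overall.

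Whole chromosomes also differed in their median over tested protein-coding genes, where the median of all was 0.02. Chromosome X (0.67), 7 (0.64) and 21 (0.60) were highest in MDA-MB-436, with 74.26%, 71.31% and 72.61% of genes above 0 and 50.74% over all. Chromosome 6 (-0.65), 17 (-0.43), 14 (-0.38) and 19 (-0.36) were lowest, with 37.61%, 33.01%, 38.66% and 35.63% of genes above 0. Neighbouring genes are not independent, copy number was not measured, and no test was made.

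**Figure D5:**
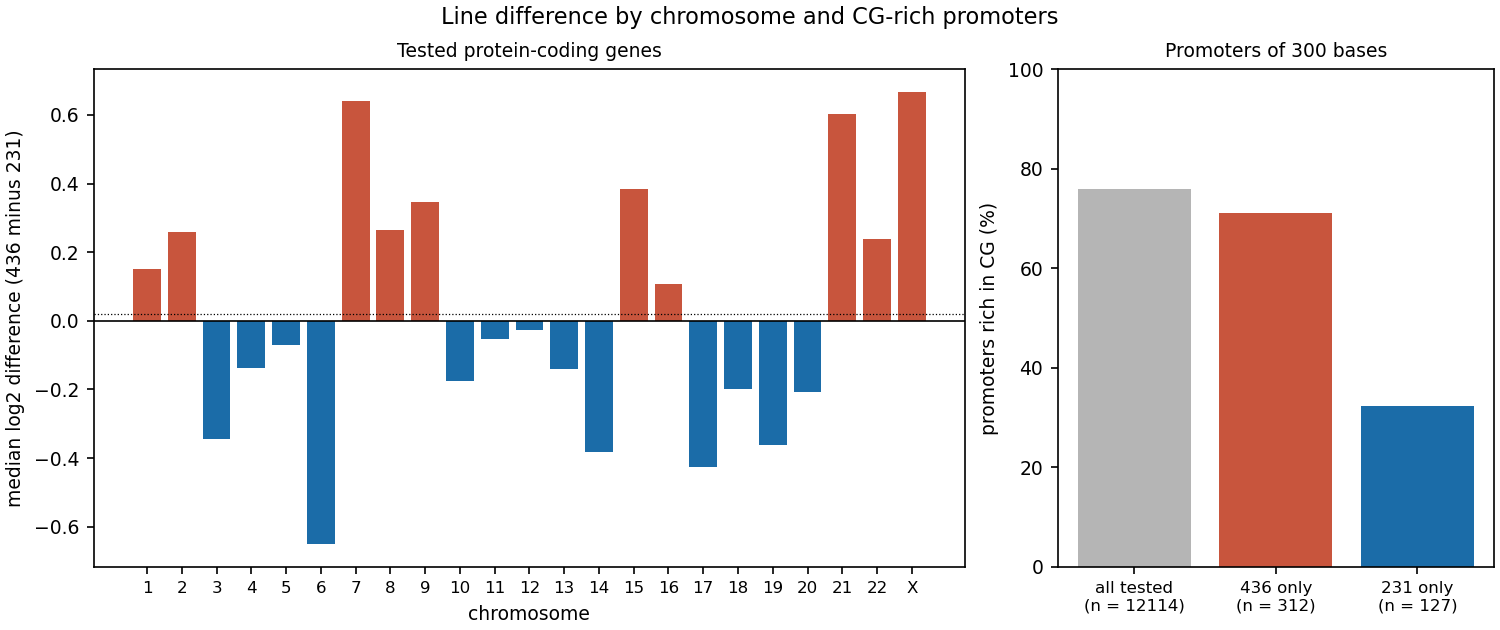
Left, median log2 difference (MDA-MB-436 minus MDA-MB-231) of tested protein-coding genes on each chromosome, with a dotted line at the median of all (0.02). Right, percent of 300-base promoters that are CG-rich among all tested protein-coding genes (75.85%) and those present only in MDA-MB-436 (71.15%) or only in MDA-MB-231 (32.28%).

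The line difference mostly had the same direction under both kinds of control. Within the non-targeting shRNA libraries 63.3% of genes were called and within the DMSO libraries 63.5%, and 12417 genes were called in both with the same direction against 35 with opposite directions. The interaction of line and control type was called for 17 genes (0.0757%), with 3286 at an unadjusted p under 0.05. Without DMSO replicate 2 of MDA-MB-436 it was called for 383 genes, and with DESeq2 for 1140.

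The called genes that differed most by control were of several kinds. DNAL1, a dynein light chain, and KYNU, an enzyme of tryptophan breakdown, were lower in the shRNA libraries of MDA-MB-436 than in its DMSO libraries: DNAL1 lay at 5.98, 6.36 and 7.56 CPM against 16.4, 16.9 and 18.4 CPM, and KYNU at 0.422, 0.430 and 0.461 against 1.14, 1.32 and 1.43 CPM. In MDA-MB-231 the libraries of both controls overlapped for both genes, DNAL1 between 19.8 and 22.9 CPM and KYNU between 6.74 and 8.14 CPM. ETS1, a transcription factor, changed direction, at -0.22 ± 0.05 within the shRNA libraries and 0.47 ± 0.05 within DMSO. NFIA, another factor, was higher in MDA-MB-231 by -1.29 ± 0.09 within DMSO and -0.36 ± 0.09 within shRNA, and DPP7, a lysosomal peptidase, was higher in MDA-MB-436 by 0.11 ± 0.06 and 0.69 ± 0.06. For SLC6A11, TINCR and C3 the interaction rested on levels under 0.5 CPM in MDA-MB-231. C3, the central complement protein, lay at 370.0 to 390.3 CPM in every MDA-MB-436 library.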

How the data were processed

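The authors deposited whole-number read counts per Ensembl gene, 1 table per library and 60675 genes each. Per the submitters' processing notes, cutadapt 2.4, HISAT2, StringTie, edgeR and GRCh38 were used. Their roles, the counting tool and its strand setting are not given in the sources used here. Of these genes 57055 were matched to GENCODE 29, with 99.93% of the counts.

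Counts of the 12 control libraries were scaled by TMM, filtered by edgeR's rule on low counts and fitted with edgeR 4.0.16 (quasi-likelihood, line and control type, 9 residual degrees of freedom, R 4.3.3). An interaction model tested whether the line difference depended on the control. Adjusted p-values are Benjamini-Hochberg values over all 22450 genes. RPKM was computed from the merged length of all annotated exons of a gene. Alternatives used limma 3.58.1 and DESeq2 1.42.0, and the scripts were tested on simulated data. Depth ran from 49588824 to 174744841 counts per library, and intervals cover the spread between libraries. For the pairing of replicates, each library was taken as its deviation from the mean log2 level of its group, gene by gene. These deviations correlated between -0.0349 and 0.0222 for same-numbered libraries across lines, so numbers were not treated as pairs.

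The members and gene lists were chosen with earlier results of these data known. Named genes are regulators set by name, the 10 largest called differences each way at 10 CPM or more, up to 3 members per list by size, the 8 most abundant genes present in each line only, run members and the 4 largest interaction differences each way. Outside this rule, PGR, CD68, KRT8, KRT18, ZEB1, ZEB2, SNAI2, PPP1R13B, TP53BP2, HIPK2, USP7, FAS, CCNG1, CDKN2D, CDKN1C, RBL1, RBL2, EPHA4, AXL, YAP1, IL1A, IL1B, IL6, CXCL8, CD74, HLA-B, FOCAD, TUSC1 and HOXA13 were chosen after their values were seen. Some genes that the rule names are not reported here. Of 174 genes followed for the text, 14 share exons with a gene on the same strand and 65 with one on the other strand, so reads of such pairs may not be told apart.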

Additional observations from a re-analysis of the deposited data

Results flagged for a closer look

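In 31 of 348 groups of 6 libraries (8.9%) 1 library lay far from the other 5 by Dixon's rule. The chance share of about 1 in 20 holds for normally spread values. Many flags were genes with almost no counts, where a few reads in 1 library trigger the rule by themselves. The share of 8.9% therefore cannot show whether aberrant libraries were more common than chance gives. Among expressed genes of MDA-MB-231, the low libraries were CDKN1A at 31.1 CPM (next 72.7), HIPK2 at 85.2 (next 96.1), ZEB1 at 72.6 (next 102.5) and GINS4 at 35.6 (next 103.3). The high libraries of that line were VIM at 5966 CPM (next 4665) and CCNA2 at 283.4 (next 273.7). CDKN1A was lowest, and VIM highest, in the same library, non-targeting shRNA replicate 2.

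In MDA-MB-436 MDM4 was high in DMSO replicate 3, at 30.5 CPM (next 13.4), SPATA18 in DMSO replicate 1, at 2.65 (next 1.85), and OSGIN1 in non-targeting shRNA replicate 3, at 21.5 (next 18.8). Low libraries were PPP1R13B at 19.6 CPM (next 27.0), GREM1 at 17.7 (next 32.5) and SQLE at 171.6 (next 205.2). CAVIN2 reached 0.472 CPM in DMSO replicate 1 (next 0.0614).

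The remaining genes were near 0 and had their counts in mainly 1 library. In MDA-MB-231 the single high values were 0.0505 CPM for CDKN2B, KLHL9 and TWIST1, 0.0631 for BMP7, 0.109 for GREM1, 0.0682 for HRK, 0.0341 for CBS, 0.0780 for ITGAM, 0.121 for COL3A1, 0.151 for ANPEP, 0.108 for WNK2 and 0.0540 for C1QTNF4. In MDA-MB-436 they were 0.0826 CPM for ID4, 0.0661 for RAD51B, 0.123 for PTPRC, 0.0228 for LYZ, 0.0461 for UCP2 and 0.149 for CST1. CDKN2B, KLHL9, TWIST1, BMP7 and ANPEP had theirs in the same library, DMSO replicate 3.

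The line difference itself depended on the control type for 17 genes in the interaction test, of which the 8 named in the report are given here. The difference within shRNA libraries minus that within DMSO libraries was 0.93 for NFIA, -1.51 for KYNU, -1.36 for DNAL1, 6.71 for TINCR, -6.93 for SLC6A11, 0.58 for DPP7, 2.97 for C3 and -0.69 for ETS1, on the log2 scale.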

How the results depend on the processing

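Of 247 genes followed, 237 kept their call and direction under every alternative that tested them, and 30 of 36 list medians kept their sign. Not every alternative tested each gene. Without overlapping genes 147 were tested, and 219 with the filter of 1 CPM. With counts divided by 4 it was 225, and in DMSO libraries alone 235. Leaving out 1 library gave 8059 to 8302 genes higher in MDA-MB-436 and 7583 to 7817 in MDA-MB-231, at 2-fold 4779 to 4948 and 4172 to 4326, and 495 to 510 and 243 to 269 genes present in 1 line only. Runs numbered 8 to 10 (absent in MDA-MB-231) and 3 to 5. The interaction count was the least stable, 1 to 383, with 1140 by DESeq2 and 31 by limma voom. With a replicate block the counts were 7901 and 7476, at 2-fold 4668 and 4102, and the MDM4 difference was -1.14. Without genes whose exons overlap another gene 4434 and 4108 were called, 2709 and 2316 at 2-fold, and 316 were present in MDA-MB-436 only. A filter of 1 CPM left 3167 genes 2-fold higher in MDA-MB-436, and protein-coding genes alone left 2737 in MDA-MB-231. Both fits tested fewer genes, and among protein-coding genes the main fit gave 2856 in MDA-MB-231. What else changed these counts was not tested. Genes present in 1 line only numbered 241 and 74 with absence under 0.01 CPM, 830 and 533 under 0.5 CPM (with 21 and 10 runs), and 226 and 90 with presence at 5 CPM. Signs turned for chromosomes 11 (0.005) and 12 (0.026) with library totals only. They turned for the p53 family (-0.15), Wnt (0.36) and killer genes (0.53) without overlapping genes. In DMSO libraries alone PI3K (0.006), keratins (-0.034) and Notch (-0.25) turned. Notch also turned without non-targeting shRNA replicate 3 of MDA-MB-231 (-0.19) or 2 of MDA-MB-436 (-0.06), over a leave-one-out range of -0.192 to 0.327. CDH1, near 0, gave -0.05 and -0.10 without DMSO replicates 1 and 3 of MDA-MB-231, in a range up to 1.30. TP63 gave 0.62 in DMSO libraries, and 0.08, 0.19 and 0.01 without replicate 1 of the MDA-MB-231 shRNA, MDA-MB-436 shRNA and MDA-MB-436 DMSO libraries, in a range from -0.44. ETS1 was -0.21 in shRNA libraries. The cause of these turns was not tested. Of called genes 51.4% were higher in MDA-MB-436, 53.6% with library totals only and 52.5% with RLE factors.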
